A study of Homo sapiens with 7 samples.

Results

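The genes described here are the cyclins that act in the G1 phase of the cell cycle (CCND1, CCND2, CCND3, CCNE1 and CCNE2), the tissue-restricted cyclin gene CCNA1, and 4 genes of inhibitors of cyclin-dependent kinases (CDKs): CDKN1B, CDKN1C, CDKN2B and CDKN2C. They were chosen by name, with earlier results of these data known. Of 10 genes in all, 9 had at least 1 probe set annotated to the gene alone, among 19775 such genes on the array. CDKN2C was not analysed here, because the probe annotation used lists no probe set under its name. The other 9 genes have 21 probe sets, and each gene is represented by the one with the highest mean log2 intensity over the arrays, with the rest given as a check. The cells were HSC-3, an established human line from an oral squamous cell carcinoma. They were kept at 37 °C as an untreated control, or heated at 42 °C or at 44 °C for 90 min and then returned to 37 °C for 0, 6 or 12 h. RNA of each of the 7 conditions went to 1 Affymetrix whole-genome array, so every difference is between a pair of arrays, has no replicate check and carries no p-value, and the number of arrays limits the precision. All conditions share the same line, and the RNA came from whole cultures, so fewer cells in a phase of the cycle and less of a transcript per cell cannot be told apart.

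A cell passes from G1 into S phase when D-type cyclins with CDK4 or CDK6, and then E-type cyclins with CDK2, phosphorylate the retinoblastoma protein RB1 and its relatives and so release E2F transcription factors. The inhibitors act on this step in different ways. Proteins of the INK4 class, such as p15 (CDKN2B) and p18 (CDKN2C), bind CDK4 and CDK6 and keep them from D cyclins, whereas the CIP/KIP proteins p27 (CDKN1B) and p57 (CDKN1C) bind cyclin-CDK complexes, above all those of CDK2. Cyclin D1 is often amplified or overexpressed in oral and other head and neck squamous cancers, and the locus that holds CDKN2A and CDKN2B is often deleted there. Much of the control of p27, cyclin D1 and cyclin E lies in protein degradation, which an RNA array does not measure.

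Intensities are the deposited linear values. Values under a floor of 21.4, the pooled median of all probe sets, are treated as below the floor, and a fold against such a value is written as a lower bound (at least). Median intensity lay between 18.7 and 32.1 over the 7 arrays, and the median log2 difference of well-measured probe sets from the control ran from -0.35 (44 °C, 12 h) to 0.40 (44 °C, 0 h). For this reason the words rose and fell are kept for differences of 2-fold or more, in 1 direction, under each of 3 scalings of the arrays: as deposited, quantile normalized, and shifted to a common median. The only measure of scatter at hand was the standard deviation (SD) between probe sets of the same gene. It was 0.24 to 0.31 log2 units per comparison, for probe sets at 4 times the floor or more on both arrays. It compares probe sets on the same pair of arrays, so it does not measure how far repeat cultures would differ. In the control CCNA1, CCNE1 and CDKN1C did not reach that brightness. Of 8 squamous epithelial markers, the 5 with a probe set of their own (KRT5, KRT14, CDH1, DSG3 and SFN) were above the floor on every array, with a summed intensity of 33109 to 45364. Leukocyte markers summed to 60.2 to 95.6 (4 genes), endothelial markers to 39.0 to 83.5 (4 genes) and fibroblast markers to 203 to 420 (6 genes, with COL1A1 alone at 139 to 307). Of these, LUM, PTPRC, VWF, CDH5 and KDR were below the floor on every array, whereas COL1A1, ITGAM (22.0 to 36.6) and PECAM1 (30.6 to 51.2) were above it on every array and COL1A2, COL3A1, DCN, PDGFRB, CD3E and CD14 on 1 to 4 arrays, with values of at most 43.5.

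**Figure D1:**
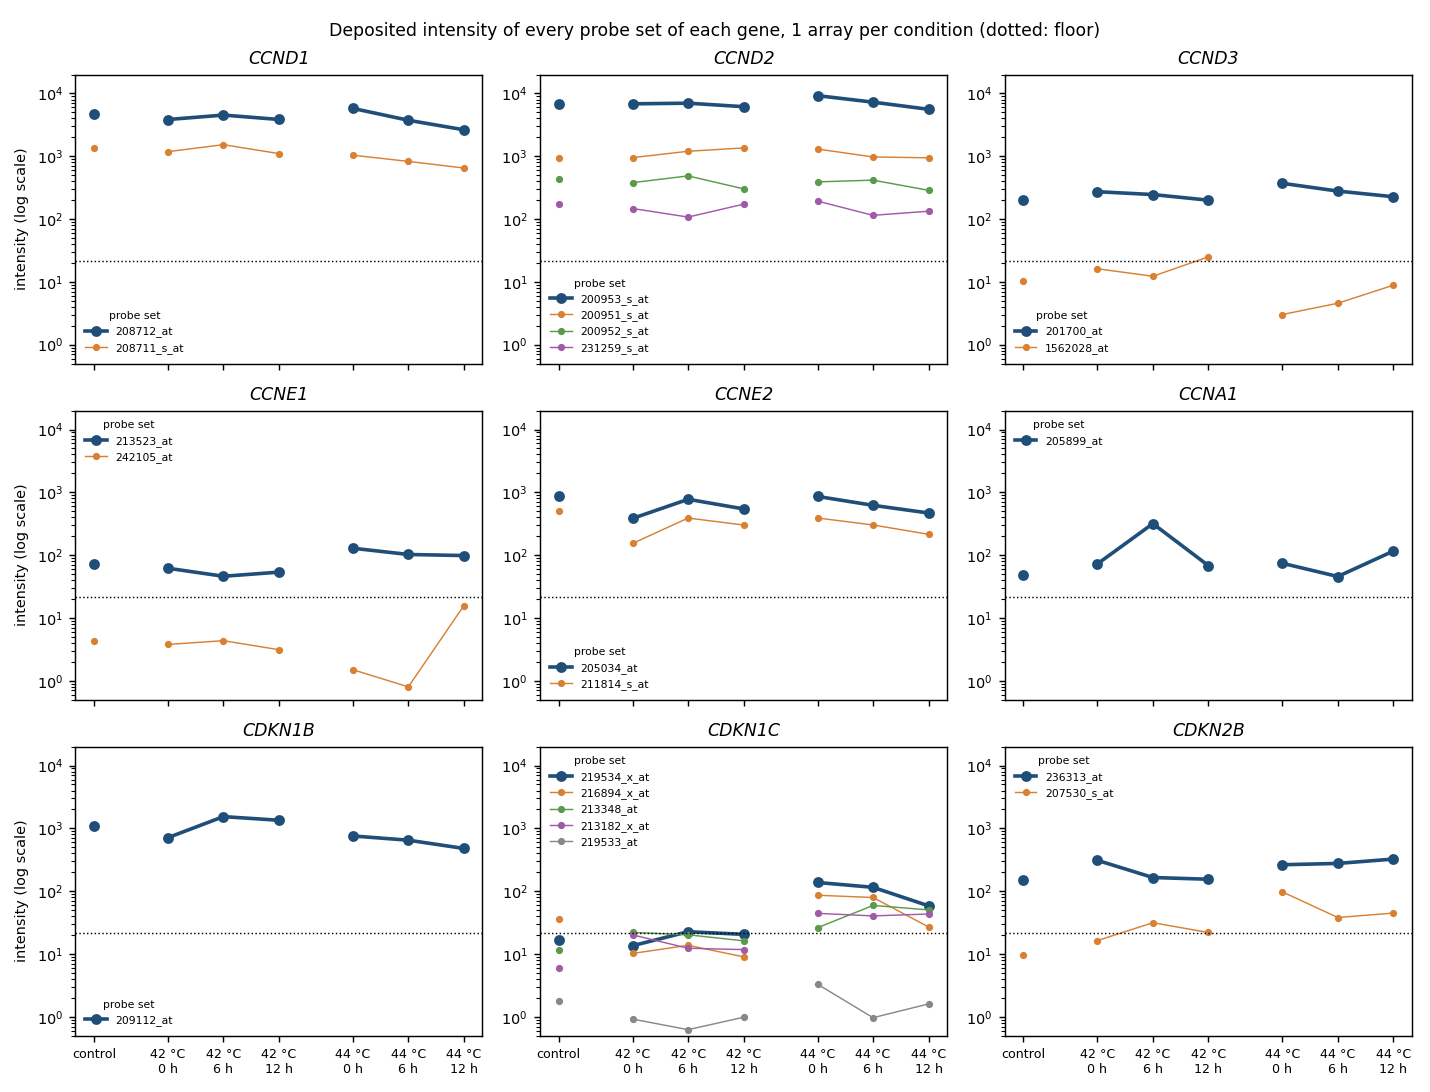
Deposited intensity (log axis) of every probe set of the 9 genes on the control array and on the arrays 0, 6 and 12 h after 42 °C and 44 °C, 1 array per point. The thick line is the brightest probe set of each gene and the dotted line the floor of 21.4; CCNA1 stands out at 317 on the 42 °C, 6 h array, and CDKN1C lies at 137.5, 115 and 58.5 on the 44 °C arrays against 13.6 to 22.6 on the 42 °C arrays.

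The D-type cyclins couple growth signals to CDK4 and CDK6. By their brightest probe sets they kept within 2-fold of the control on every heated array under all 3 scalings. CCND1, encoding cyclin D1, read 4662 on the control array, 3843, 4521 and 3850.5 at 0, 6 and 12 h after 42 °C, and 5779, 3740 and 2638 at 0, 6 and 12 h after 44 °C. The lowest value was thus the last 44 °C array. There the difference from the control was -0.82 log2 units as deposited, -0.77 when quantile normalized and -0.47 with the median shift. The other CCND1 probe set was also lowest there, at 650 against 1364 in the control, a difference of -1.07, -0.79 and -0.72 under the same scalings. On the 44 °C, 0 h array the probe sets went opposite ways, 0.31 for the brighter and -0.39 for the dimmer, both as deposited.

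CCND2, encoding cyclin D2, had the smallest range of the 9 genes, 0.72 log2 units from the lowest array to the highest. Its brightest probe set read 6834 in the control, 6833, 6995 and 6155 after 42 °C and 9221, 7264 and 5594 after 44 °C. The one value well apart, at 44 °C and 0 h, differed from the control by 0.43 as deposited, but by -0.01 and 0.03 under the other scalings. The other 3 CCND2 probe sets were all above the floor and differed from the control by -0.68 to 0.55 log2 units as deposited. CCND3, encoding cyclin D3, read 204 in the control, 272, 245 and 200 after 42 °C and 371, 279 and 227 after 44 °C. On the 44 °C arrays its difference from the control was above 0 under every scaling, between 0.15 and 0.86, without reaching 2-fold. Its other probe set was above the floor on the 42 °C, 12 h array alone, at 25.0.

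The E-type cyclins, the partners of CDK2 at the start of S phase, differed from one another. CCNE2, encoding cyclin E2, fell directly after 42 °C. It read 868 in the control, 384, 774 and 544 at 0, 6 and 12 h after 42 °C, and 859.8, 621 and 468 after 44 °C. The 42 °C, 0 h value was the lowest of the 7, and 2.26-fold lower than the control (-1.17 log2 as deposited, -1.08 and -1.04 under the other scalings). The second CCNE2 probe set fell further on that array, 154 against 502 in the control, or 3.27-fold (-1.71, -1.55 and -1.58). At 6 h after 42 °C the differences of both probe sets were smaller, at -0.16 and -0.37 as deposited, and at 12 h they were -0.67 and -0.74. At 44 °C, 12 h the second probe set differed from the control by -1.23 log2 units as deposited, but by -0.80 and -0.88 under the other scalings, so it did not pass. In this comparison of 42 °C, 0 h with the control, 3.58% of the genes above the floor fell and 1.69% rose, against 1 of 8 measured genes described here in each direction (CCNE2 lower and CDKN2B higher).

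CCNE1, encoding cyclin E1, was dim, with values of 71.4 in the control, 61.8, 46.0 and 53.6 after 42 °C and 129, 102 and 98.4 after 44 °C. All 3 values at 44 °C lay above the control and all 3 at 42 °C below it as deposited. How many of all genes split this way was not counted. No difference from the control reached 2-fold under any scaling: at 44 °C the differences were 0.85, 0.52 and 0.46 at 0, 6 and 12 h as deposited, and 0.47, 0.72 and 0.93 after quantile normalization. Its other probe set was below the floor on every array. The stretch before the CCNE1 start in the RefSeq annotation is shown because CCNE1 was higher after 44 °C than after 42 °C on the arrays of each time as deposited. The same held for CDKN1C, which had no promoter window, and by less for CCND3 (0.44, 0.18 and 0.18 log2 units), whose windows are not printed. The CCNE1 stretch covers chr19:29811741-29811990 (GRCh38.p14, plus strand, 250 bases), with the GC box GGGCGG, the site named for transcription factor SP1, in capitals on either strand.
CCNE1: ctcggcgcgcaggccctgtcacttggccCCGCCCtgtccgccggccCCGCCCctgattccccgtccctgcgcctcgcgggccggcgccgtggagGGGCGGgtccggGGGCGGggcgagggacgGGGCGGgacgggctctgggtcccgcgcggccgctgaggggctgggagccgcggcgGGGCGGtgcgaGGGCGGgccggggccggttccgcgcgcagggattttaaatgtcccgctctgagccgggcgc
The stretch held 7 GC boxes, and 42.6% of all 35116 promoter windows of this length held at least 1. It held none of the other motifs searched on both strands, which were the E2F letters TTTCGCGC, TTTGGCGC, TTTCCCGC and TTTGCCGC (2.79% of windows), the pair of heat shock units GAANNTTC or TTCNNGAA (11.6%), the full heat shock element, which is GAANNTTC followed by NNGAA and so overlaps the pair (0.441%), the AP-1 site TGACTCA (4.2%), the CRE TGACGTCA (1.65%) and the E-box CACGTG (6.34%).

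CCNA1, encoding cyclin A1, a cyclin expressed mainly in the male germ line and in some leukaemias, had the widest range of the 9 genes (2.80 log2 units). It read 47.6 in the control, 72.4, 317 and 68.1 at 0, 6 and 12 h after 42 °C, and 74.2, 45.6 and 116 after 44 °C. The 42 °C, 6 h array stood far above the rest, and the 44 °C, 12 h array came next. At 42 °C, 6 h CCNA1 rose 6.66-fold over the control (2.73 log2 as deposited, 2.49 under each of the other scalings). It was the only 1 of the 9 genes to rise there, and 1.73% of all genes above the floor did. At 44 °C, 12 h it rose 2.43-fold (1.28, 1.76 and 1.63). The control value lay near the floor, and CCNA1 has 1 probe set, so no other probe set checks these values. Of 10 germ line genes listed beside it, 9 had a probe set. DDX4, DAZL, SYCP1, SYCP3, TNP1 and PRM2, genes of germ cell identity, meiosis and sperm chromatin, were below the floor on every array, the 42 °C, 6 h array included. PRM1, also of sperm chromatin, was above it on 2 arrays (53.4 at 44 °C, 0 h and 22.1 at 44 °C, 6 h), and CCNB3, a meiotic cyclin, on 3 arrays (23.2 and 27.1 at 42 °C, 0 and 12 h, and 48.5 at 44 °C, 0 h). MAGEA4, a cancer-testis antigen, was at 848 on the 42 °C, 6 h array against 718 in the control. No gene of the list rose or fell in any comparison with the control. Only 1 to 3 of them were above the floor on either array of a comparison, and 1 at 42 °C, 6 h. Over all genes 1.11% to 2.27% rose and 0.72% to 3.99% fell, so this count of 0 does not set the list apart. The RefSeq window for CCNA1 belongs to a transcript start inside the annotated gene, downstream of the gene's first base, and held none of the motifs named above.

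Of the CIP/KIP inhibitors, CDKN1C rose at every time after 44 °C by its brightest probe set, but not by all of its probe sets. CDKN1C encodes p57, an imprinted inhibitor expressed from the maternal allele in most tissues. Its brightest probe set was below the floor in the control, at 16.8, and read 13.6, 22.6 and 20.5 after 42 °C and 137.5, 115 and 58.5 after 44 °C. By this probe set every value after 44 °C lay above the other arrays, and the highest was the one directly after heat. How many of all genes show such a split was not counted. The rises over the control were at least 6.44-fold at 0 h, at least 5.39-fold at 6 h and at least 2.74-fold at 12 h (2.69, 2.43 and 1.45 log2 units as deposited, and between 1.80 and 2.63 under the other scalings). On these arrays 2.27%, 1.71% and 1.93% of all genes rose. The name of this probe set ends in x_at, which the maker of the array uses for sets whose probes can also bind other sequences.

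The 5 CDKN1C probe sets did not all move alike. The second, also an x_at set, was above the floor in the control, at 35.7, and read 86.1, 79.3 and 26.9 after 44 °C, so it was higher at 0 h (1.27 log2 as deposited, short of 2-fold when quantile normalized) and rose at 6 h (2.22-fold), differed by -0.41 log2 units at 12 h as deposited. The third (name ending in at alone) read 26.2, 59.3 and 50.3 after 44 °C against 11.4 in the control. It passed 2-fold under every scaling at 6 and 12 h, by at least 2.78-fold and at least 2.36-fold, and not at 0 h. The fourth, also an x_at set, read 44.3, 40.4 and 43.3 after 44 °C against 5.94 in the control, and passed at 12 h alone. At 0 h the first probe set, an x_at set, was thus the only 1 to pass against the control. The fifth was below the floor on every array. As deposited, the 4 probe sets that reached the floor on any array were above it on all 3 arrays after 44 °C. On the 42 °C arrays none exceeded 22.6, but the second read 35.7 in the control, above its 26.9 at 44 °C, 12 h. The set at 5.94 in the control reached the floor only after 44 °C, so its place in this count follows from how the sets were picked. Outside 44 °C the brightest set passed the floor of 21.4 only at 42 °C, 6 h, at 22.6. The set at 11.4 in the control did so only at 42 °C, 0 h, at 22.0. Their place in the count thus rests largely on the 44 °C arrays too, and the count is no separate check of the rise. Under the other scalings the third did not exceed the floor at 44 °C, 0 h. As a mean over its probe sets CDKN1C rose at 44 °C, 6 h (1.20 log2 as deposited) but did not pass at 0 h (1.06 as deposited, under 2-fold in another scaling) or at 12 h (0.66).

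CDKN1B, encoding p27, passed 2-fold under all scalings in no comparison with the control. It has 1 probe set, which read 1078 in the control, 711, 1539.5 and 1346 at 0, 6 and 12 h after 42 °C, and 757, 648 and 479 after 44 °C. After 42 °C the first value was below the control and the later ones above it, whereas all 3 values after 44 °C were below it. At 44 °C, 12 h the difference from the control was -1.17 log2 units as deposited (2.25-fold lower), but -0.83 when quantile normalized and -0.82 with the median shift.

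CDKN2B, encoding the INK4 inhibitor p15, a target of transforming growth factor beta signalling, rose on 2 arrays. Its brightest probe set read 152 in the control, 309.6, 165 and 155 at 0, 6 and 12 h after 42 °C, and 264, 277 and 324 after 44 °C. The 42 °C value directly after heat and all 3 values after 44 °C stood apart from the remaining 3 arrays. CDKN2B rose 2.03-fold at 42 °C, 0 h (1.02 log2 as deposited, 1.19 and 1.16 under the other scalings) and 2.13-fold at 44 °C, 12 h (1.09, 1.55 and 1.44). At 44 °C and 6 h it was 0.86 above the control as deposited and 1.03 and 0.93 above it under the other scalings, and at 0 h 0.79, 0.47 and 0.39 above. The other CDKN2B probe set was below the floor in the control, at 9.70, and at 42 °C, 0 h, at 16.3, so it gave no value for the first rise, which did not pass as a mean over the probe sets (0.51 log2 as deposited). After 44 °C it read 97.6, 38.1 and 44.8, which passed 2-fold under every scaling at 0 h (at least 4.57-fold) and at 12 h (at least 2.10-fold). CDKN2A, the neighbouring INK4 gene, read 883, 736 and 709 after 44 °C against 606 in the control and passed 2-fold in no comparison. Its values come from an x_at set, whose probes can also bind other sequences.

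The stretch before the CDKN2B start is shown because CDKN2B was the one inhibitor with a promoter in the RefSeq table to rise. It covers chr9:22009314-22009555 (GRCh38.p14, minus strand, 242 bases, ending where the annotated gene begins), with GC boxes in capitals.
CDKN2B: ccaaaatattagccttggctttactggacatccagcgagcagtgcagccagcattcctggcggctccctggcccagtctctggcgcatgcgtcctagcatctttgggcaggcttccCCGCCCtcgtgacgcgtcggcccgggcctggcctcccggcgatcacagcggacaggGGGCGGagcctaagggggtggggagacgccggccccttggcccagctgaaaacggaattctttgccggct
It held 2 GC boxes, 1 on each strand, and none of the other motifs. Promoters of 6 of the 10 genes were matched by symbol, CCND3, CCNE1, CCNA1, CDKN1B, CDKN2B and CDKN2C, with 3 windows each for CCND3 and CDKN2C. Of the other windows, 1 of CCND3 held the heat shock pair GAAAGTTC, 207 bases before the start, and 2 GC boxes, another held 5 GC boxes and the third none of the motifs. CDKN1B held 1 GC box. In CDKN2C 1 window held 5 GC boxes, another 1 GC box and 1 E-box, and the third 1 E-box. A match or its absence describes the letters of these windows only.

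**Figure D2:**
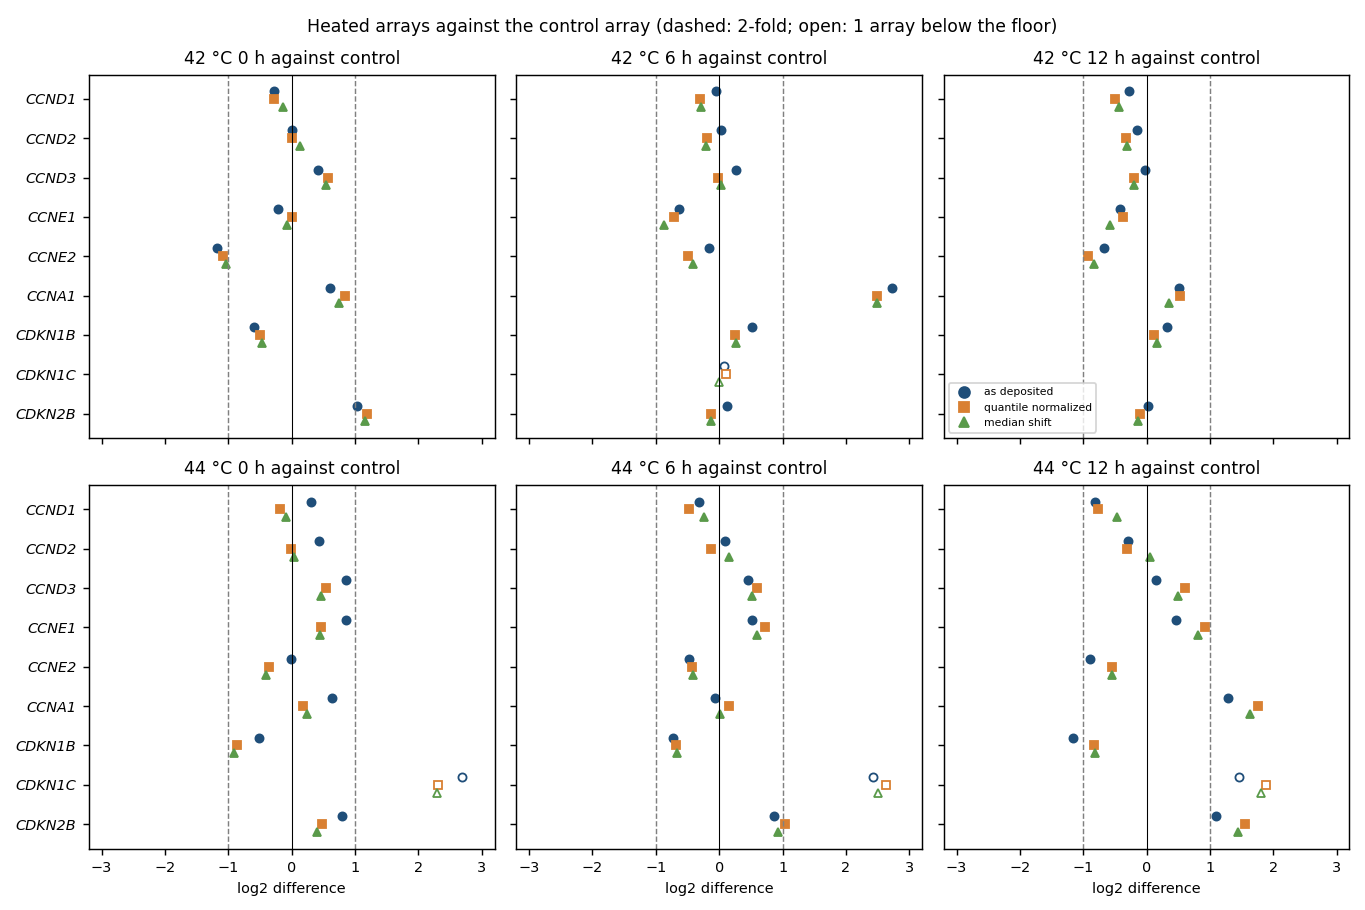
Log2 difference of the 9 genes on each heated array from the control array, under 3 scalings (circle, square and triangle), with dashed lines at 2-fold. Open marks are lower bounds, where the control or the heated array was below the floor; all 3 marks lie past 2-fold for CCNE2 and CDKN2B at 42 °C, 0 h, CCNA1 at 42 °C, 6 h, CDKN1C on all 44 °C arrays, and CCNA1 and CDKN2B at 44 °C, 12 h.

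Counted over the comparisons with the control, the 44 °C, 12 h array held the most changes, with 3 of 9 genes risen (CCNA1, CDKN1C and CDKN2B) and none fallen, where 1.93% of all genes above the floor rose and 3.99% fell. The median log2 difference of the 9 genes there was 0.15 as deposited, 0.60 when quantile normalized and 0.50 with the median shift, beside -0.25, 0.04 and 0.06 over all genes. At 42 °C, 12 h no gene of the group passed in either direction, and 1.11% of all genes rose and 1.57% fell. The median of the 8 genes above the floor on either array was then -0.09, -0.26 and -0.25, beside 0.16, 0.02 and 0.00 over all genes. At 44 °C, 0 h and 6 h 1 of 9 genes rose (CDKN1C) and none fell, where 0.72% and 3% of all genes fell, and at 42 °C, 6 h 1 rose and none fell, where 2.23% of all genes fell. With 9 genes, a single one is a larger share than each of these backgrounds, so counts of 1 say little about the group. The genes were chosen with earlier results of these data known, so their share, 3 of 9 included, is no independent comparison with all genes. The heated arrays share 1 control array, so its values enter every difference.

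**Figure D3:**
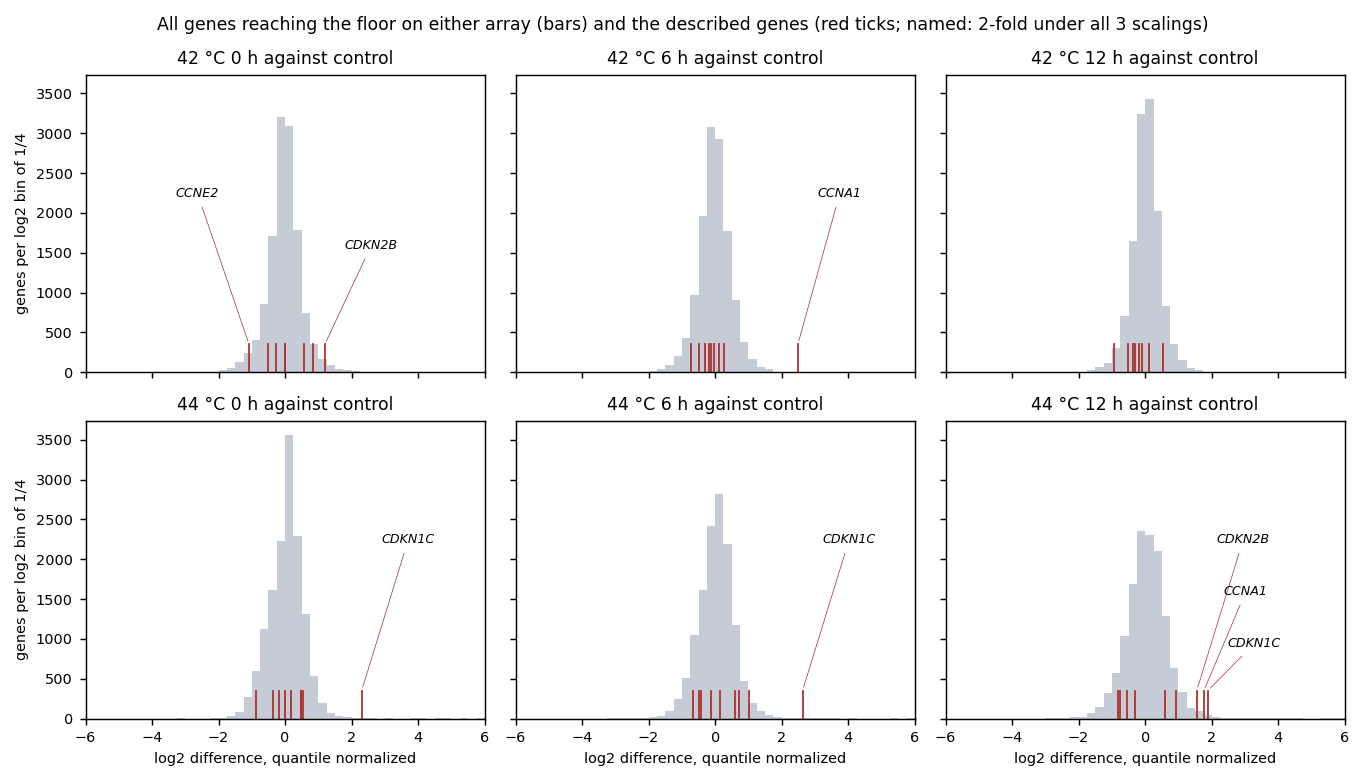
Histograms of the log2 difference from the control (quantile normalized) over all genes above the floor on either array, in bins of 0.25, with red ticks for the genes described here and names for those past 2-fold under all 3 scalings. Most ticks lie within the bulk of all genes; the named ones lie at its edges, farthest out for CCNA1 at 42 °C, 6 h (2.49) and CDKN1C at 44 °C, 0 and 6 h (2.30 and 2.63).

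Set against the same recovery time after 42 °C, the 44 °C arrays differed by 2-fold or more under all 3 scalings in CDKN1C, CCNA1, CCNE1 and CDKN2B, each at 1 time or more. CDKN1B and CCNE2 did so as deposited only. CDKN1C was higher at each time: 137.5 at 44 °C against 13.6 at 42 °C at 0 h (at least 6.44-fold), 115 against 22.6 at 6 h (5.10-fold as deposited) and 58.5 against 20.5 at 12 h (at least 2.74-fold). The 22.6 was just above the floor and fell below it with the median shift, where the 6 h difference is a lower bound too. Of all genes, 3.14%, 1.96% and 2.03% were higher at 44 °C at 0, 6 and 12 h. At 0 h CDKN1C was the only one of the 9 to pass, and none was lower, where 0.657% of all genes were. CCNA1 was lower at 6 h, with 45.6 at 44 °C against 317 at 42 °C (6.95-fold, -2.80 log2 as deposited, -2.33 and -2.48 under the other scalings), where 5.2% of all genes were lower. At 12 h the order was the opposite, with 116 at 44 °C against 68.1 at 42 °C, but the difference of 0.76 as deposited passed 2-fold only after the other scalings (1.24 and 1.28).

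CCNE1 was higher at 44 °C at each time as deposited. It read 102 at 44 °C against 46.0 at 42 °C at 6 h, a rise of 2.22-fold that passed under every scaling (1.15, 1.44 and 1.47 log2). At 0 h it read 129 against 61.8 (1.06 as deposited, 0.45 and 0.53 otherwise) and at 12 h 98.4 against 53.6 (0.88, 1.31 and 1.39), and neither passed throughout. At 12 h 2 of the 9 genes, CDKN1C and CDKN2B, were higher and none lower, where 4.15% of all genes were lower. CDKN2B was 2.09-fold higher at 12 h, with 324 at 44 °C against 155 at 42 °C (1.07, 1.65 and 1.58). Its other probe set also passed there, with 44.8 against 22.0. CDKN1B differed by -1.25 and -1.49 log2 units at 44 °C at 6 and 12 h as deposited, with 648 against 1539.5 and 479 against 1346. The quantile normalized differences were -0.93 and -0.95 and the median-shifted ones -0.93 and -0.98, just short of 2-fold. CCNE2 was 1.16 higher at 0 h as deposited, with 859.8 against 384, and 0.72 and 0.63 under the other scalings. By their brightest probe sets, the D cyclins differed between the temperatures by -0.55 to 0.80 log2 units over the 3 times and scalings. The other CCND1 probe set went lower, to -0.88 at 6 h as deposited.

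**Figure D4:**
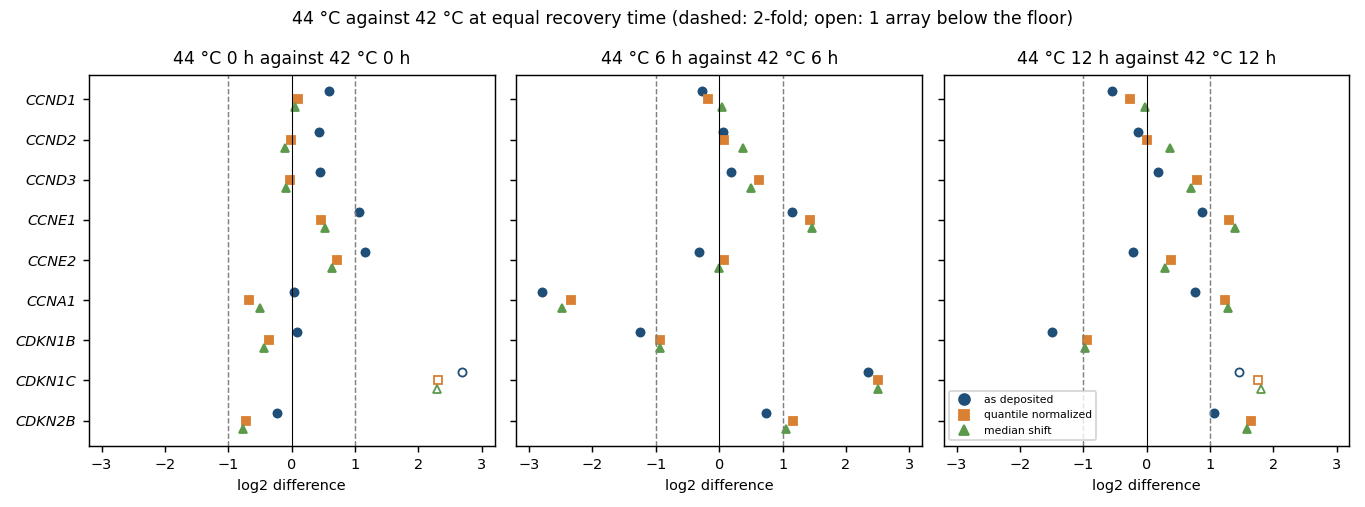
Log2 difference of the 9 genes at 44 °C from 42 °C at 0, 6 and 12 h of recovery, under 3 scalings. Dashed lines are at 2-fold, and open marks are lower bounds by the deposited values. The filled median-shift mark of CDKN1C at 6 h is a lower bound too. CDKN1C lies right of the 2-fold line at each time, CCNA1 far left of the lower line at 6 h, and CDKN1B around the lower line at 6 and 12 h.

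The partners and targets of these genes were read from lists of the pathway. Of 6 G1 kinases and RB proteins, none rose on any heated array, and CDK6 and RBL1 fell after 44 °C, that is 1 of 6 at 6 h and 2 of 6 at 12 h, where 3% and 3.99% of all genes fell. CDK6, the kinase partner of D cyclins, read 1621, 1096 and 681 at 0, 6 and 12 h after 44 °C against 2327 in the control, and fell 2.12-fold at 6 h and 3.42-fold at 12 h. The other D cyclin kinase, CDK4, read 4841, 3609 and 2817 after 44 °C against 3056 in the control and passed in no comparison. RBL1, encoding the RB relative p107, read 80.6 at 44 °C, 12 h against 252 in the control (3.13-fold lower). The median of this list at 44 °C, 12 h was -0.76 log2 as deposited, -0.38 when quantile normalized and -0.41 with the median shift, beside -0.25, 0.04 and 0.06 over all genes.

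Of 10 E2F and DP transcription factors, E2F8 fell and the others passed in no comparison. E2F8, an atypical repressor E2F, read 164 at 42 °C, 0 h against 483 in the control (2.95-fold lower) and 237 at 42 °C, 12 h (2.04-fold lower), 1 of 10 genes where 3.58% and 1.57% of all genes fell. After 44 °C it read 355, 335 and 234 at 0, 6 and 12 h, so the 12 h value was as low as after 42 °C, but it did not pass under all 3 scalings. Of the 16 measured E2F-driven genes of replication and S phase entry, none passed 2-fold in any of the 6 comparisons with the control, nor did any of 4 cyclins of the later phases (CCNA2, CCNB1, CCNB2 and CCNF). The same held for 4 other CDK inhibitors. Over all genes 1.11% to 2.27% rose and 0.72% to 3.99% fell in these comparisons, so counts of 0 in lists of this size do not set them apart from all genes. CDKN1A, encoding p21, the third CIP/KIP protein, read 813, 579 and 482 after 44 °C and 456, 409.8 and 604 after 42 °C, against 489 in the control.

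Among 12 genes of G1 cyclin and p27 turnover, FBXW7 fell. FBXW7 encodes the ubiquitin ligase subunit that recognises cyclin E, and read 49.0 at 44 °C, 12 h against 146 in the control (2.98-fold lower). It was also lower at 44 °C than at 42 °C at 6 h (95.4 against 342, 3.59-fold) and at 12 h (49.0 against 161, 3.30-fold). The 42 °C, 6 h value of 342 was itself above the 146 of the control, without passing under all 3 scalings. FBXW7 was 1 of 12 genes each time. Over all genes, 3.99% fell at 44 °C, 12 h, and 5.2% and 4.15% were lower at 44 °C than at 42 °C at 6 and 12 h. SKP2, the ligase subunit for p27, passed in no comparison with the control. Of 16 upstream transcription factors, FOS, a subunit of AP-1, rose on 4 of 6 heated arrays, up to at least 39.7-fold at 44 °C, 6 h (848 against 3.86 in the control), 1 of 16 genes where 1.69% to 2.27% of all genes rose on these 4 arrays, and no other member passed with the control. No gene of the CDK-activating kinase and CDK phosphorylation list (6 genes) passed in these comparisons.

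The genes whose log2 level over the 7 arrays was most like that of CCNA1 and CDKN1C, the 2 with the widest ranges, were taken from 5734 genes reaching 4 times the floor and varying at least 2-fold. For CCNA1 they were ZNF654 (Pearson's r = 0.98), MESP2 (0.92) and ZNF550 (0.91), which read 116, 93.6 and 114 on the 42 °C, 6 h array against 52.0, 52.0 and 46.1 in the control. For CDKN1C they were TNNT1 (0.99), RALY (0.97) and SERINC2 (0.97), which read 1269, 1234 and 1325 on the 44 °C, 0 h array against 580.3, 562 and 477 in the control. These correlations rest on 7 points that share arrays and array levels, and are the highest of a search, so they are a description of likeness only.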

How the data were processed

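The authors deposited 1 table of linear intensity values, with 54675 probe sets and 7 arrays. Labelled cRNA was made from 5 µg of total RNA, per the labels. How probes were summarised and arrays scaled: not given in the sources used here. The genes and lists were chosen with earlier results of these data known.

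Values were scaled in 3 ways (as deposited, quantile normalization over all probe sets, and a median shift based on 20902 probe sets that reached the floor in all arrays), then set to a floor of 21.4 and taken as log2. Of the probe sets, 41097 listed 1 gene in the platform annotation, 1801 several and 11777 none. Symbols were updated through a RefSeq gene table (GRCh38.p14). A gene was called at 1 log2 unit in the same direction under all scalings, and shares of called genes are over those above the floor on either array. With 1 array per condition no test was made. Genes named were all members, up to 3 called genes per list and the 3 genes most like each of the 2 most variable members. CDK4, CDKN1A, CDKN2A, MAGEA4, SKP2 and the genes listed as below the floor or not called were named after their values were seen. Promoter windows came from RefSeq (GRCh38.p14), 250 bases before an annotated transcript start, which for CCNA1, CCND3 and some windows of CDKN2C lies inside the annotated gene. Analyses used Python 3.11.15, pandas 2.3.3 and NumPy 2.4.6.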

Additional observations from a re-analysis of the deposited data

Results flagged for a closer look

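CCNE1 was singled out because all 3 arrays after 44 °C lay above the control and all 3 after 42 °C below it, as deposited. The mean log2 difference from the control was 0.61 at 44 °C and -0.42 at 42 °C, a gap of 1.03. This difference between the temperatures was not tested, since each condition has 1 array. The split rests on 1 control value of a dim probe set. It was looked for only among the genes described here, so its share over all genes is not known. After quantile normalization the 42 °C, 0 h array was 0.01 above the control, so the split then did not hold for all 3 arrays.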

How the results depend on the processing

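Of 18 counts of risen or fallen genes, all stayed within 1.5 times without a floor. With the second brightest probe set of each gene, or the mean of its probe sets, the rise of CDKN2B at 42 °C, 0 h was lost (0 genes higher, against 1). CDKN1C at 44 °C, 12 h turned to -0.41 log2 units from the control with its second brightest probe set. Against the control at 44 °C, 0 h, both of these settings gave 1 gene higher, CDKN2B in place of CDKN1C, and at 12 h both, like a floor at 2 times its height, gave 2 higher (CCNA1 and CDKN2B), against 3. As deposited alone, 1 gene (CDKN1B) was lower at 44 °C, 12 h than in the control, and quantile normalization alone gave 2 genes higher at 44 °C, 6 h. Between 44 °C and 42 °C, the deposited values alone gave 3 genes higher at 0 h (CCNE1, CCNE2 and CDKN1C), 2 lower at 6 h (CCNA1 and CDKN1B) and 1 lower at 12 h (CDKN1B), against 1, 1 and 0. The mean of probe sets gave 0 higher at 0 h, 1 at 6 h and 1 at 12 h, and the second brightest probe set 2, 1 and 1, against 1, 2 and 2. At 12 h, quantile normalization alone and the median shift alone each gave 4 higher (CCNE1, CCNA1, CDKN1C and CDKN2B), and a floor at 2 times its height gave 1. The cause was not tested. CDKN1C, CCNE1 and CCNA1 lay near the floor in the control, which limits their folds, and CCNA1 and CDKN1B have 1 probe set each. No paired analysis was possible because each condition has 1 array, and no leave-one-out was run.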
